A study of Mus musculus with 17 samples.

Results

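The enzymes that build, exchange and break down glycerophospholipids, among them the choline phospholipids, were examined in mouse colon through 37 genes. The genes were taken by symbol from the 23719 entries of a table of raw RNA-seq counts, where all 37 were found. All 37 also passed the filter on low counts, and none had fewer than 40 counts in any mouse. The genes were picked as known enzymes of the pathway, and the pathway was chosen from an earlier set-level result of the same comparison of GWI with control colons. Their values are therefore a description of that comparison, and the counts and medians given here lend it no independent support.

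Colon explants came from 17 male C57BL/6 mice aged 32 to 34 weeks. The 8 GWI mice, a model of Gulf War Illness, drank pyridostigmine bromide (PB), which reversibly blocks acetylcholinesterase, at 2 mg/kg for 7 days and then recovered without it for 21 days, while the 9 control mice received water. Tissue was taken at day 30, and the sources used here do not name the tissue layers of the explants. Total counts ranged from 16744096 to 20741212 per control mouse and from 16293537 to 18389686 per GWI mouse.

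Glycerophospholipids are the main lipids of cell membranes, and all of them are built from phosphatidic acid. Lipin phosphatases turn phosphatidic acid into diacylglycerol, which receives choline or ethanolamine in the Kennedy pathway, while CDP-diacylglycerol synthases lead to phosphatidylinositol and cardiolipin. In the intestine, phosphatidylcholine is also part of the mucus layer and of the lipid particles that absorptive cells release.

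Levels are given as CPM (counts scaled to the same library total) on library sizes scaled by edgeR's TMM method. A log2 fold change above 0 means more in GWI colons than in control colons, and its standard error is written SE. The test was the quasi-likelihood F test of edgeR, p-values were adjusted after Benjamini and Hochberg across the 14146 genes tested, and a gene was called at an adjusted p under 0.05.

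Of the 37 genes, 14 were higher in GWI colons and 0 were lower. Among all tested genes, 13.4% were higher and 13.5% were lower by the same rule. At an unadjusted p under 0.05, edgeR placed 21 of the 37 higher and 2 lower, beside 19.3% and 22.1% of all tested genes. The DESeq2 Wald test with adjustment gave 16 and 0, and limma-voom with sample quality weights gave 26 and 2. Of all genes, DESeq2 called 2174 higher and 2405 lower of 19717, and limma-voom called 3911 higher and 4180 lower of 14146. DESeq2 was run without the filter on low counts, so its 19717 genes include low-count genes that the filter removed elsewhere. Scaling by library size alone gave 15 and 0, beside 1530 and 1851 of 14146 tested genes. Some other fits gave fewer. With the replicate number as a block, 11 of the 37 were higher and 0 lower, beside 1404 and 814 of 14093 tested genes. Summing mice whose names share a first part left 6 control and 4 GWI samples. That fit gave 0 and 0 of the 37, beside 14 and 1 of 14813 tested genes. In the edgeR fit with group alone, the log2 fold change was positive for 30 of the 37. Its median was 0.34, against a median of -0.06 over all tested genes.

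In single mice, the median of the 37 genes relative to their control means (log2) lay between -0.11 and 0.20 in controls, with a median of -0.03. The same value lay between 0.17 and 0.48 in GWI mice, with a median of 0.33. The groups met at their edges, because Control replicate 1 had the highest control value and GWI replicate 1, the lowest of its group, fell just below it. For 3 of the 37 genes, Lpin2, Lpcat3 and Pnpla6, every GWI mouse lay above every control mouse, which was the case for 1.83% of all tested genes.

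**Figure D1:**
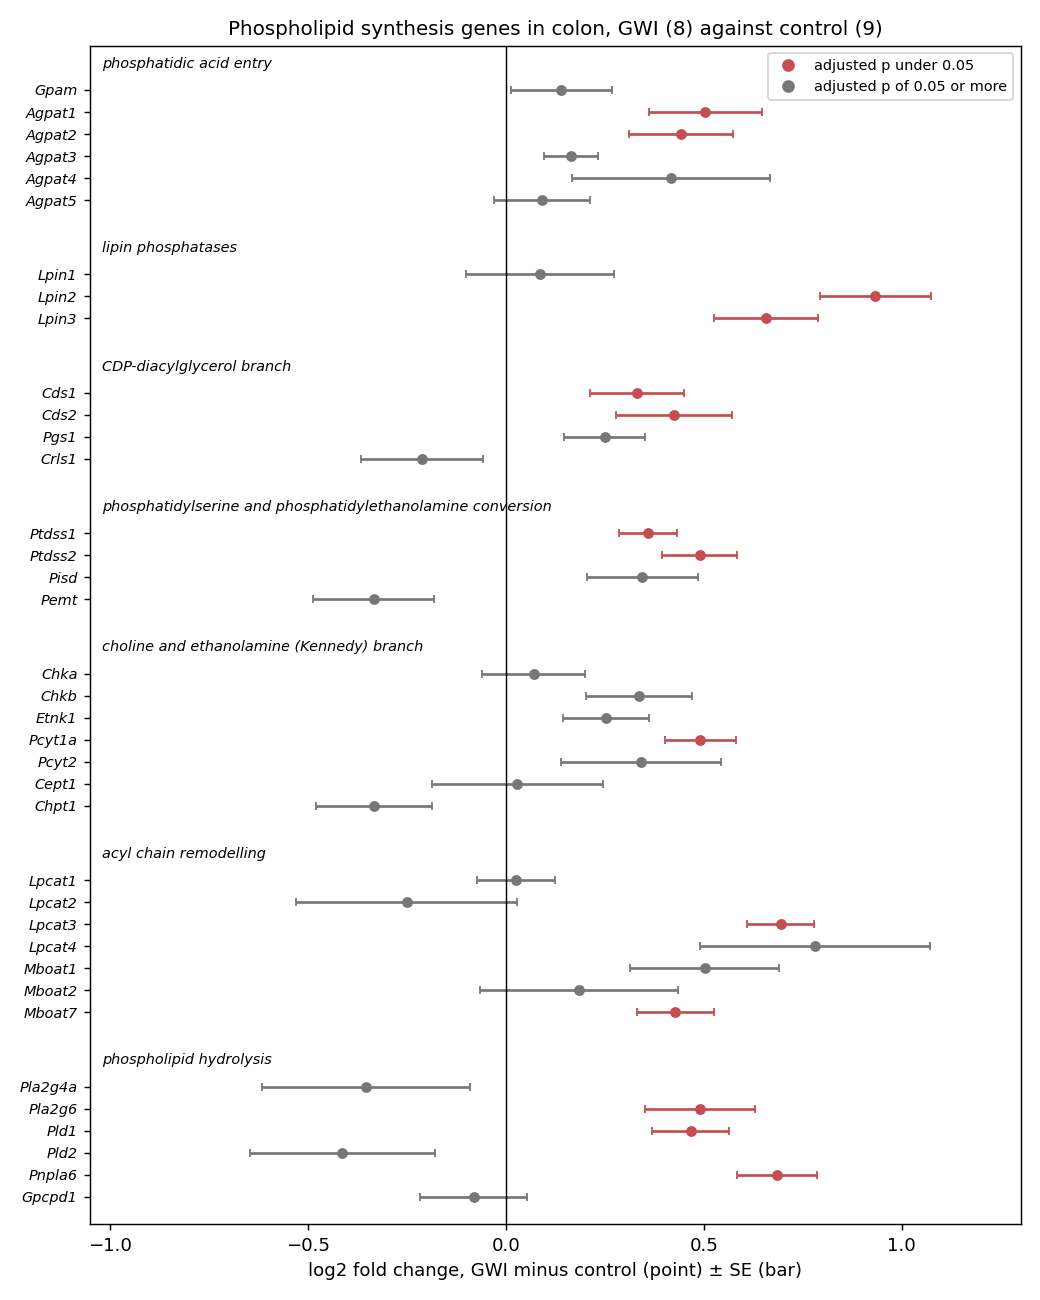
Log2 fold change of each of the 37 genes, GWI against control (point), with its standard error (bar), grouped by step of the pathway. Red points mark the 14 genes with an adjusted p under 0.05, all of them to the right of 0, and grey points the other 23.

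The libraries and the tissue in them were not uniform. In Control replicate 9 the 10 most abundant genes took 23.1% of the counts, more than in any other mouse, and in Control replicate 1 the goblet cell genes Clca1 and Fcgbp reached 7300 and 6294 CPM, against control medians of 814 and 783 CPM. Fabp6, a marker of the distal small intestine, had 119 CPM in Control replicate 6 and 314 CPM in Control replicate 7, and its control median was 5.98 CPM. With Control replicates 1 and 9 both left out, 21 of the 37 genes were higher and 1 was lower, and of all tested genes 19.7% were higher and 19.6% were lower. With Control replicates 6 and 7 left out, an alternative chosen after seeing the data, 10 were higher and 0 were lower, beside 1426 and 1351 of 14139 tested genes. In the GWI group, GWI replicate 5 had 3865 CPM of the epithelium gene Car1, and the next GWI mouse had 7849 CPM. Without GWI replicate 5, 13 of the 14 genes called higher were still called. Of all tested genes, 13.1% were higher and 14.5% were lower in that fit.

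Smooth muscle genes moved with the groups. All 10 genes of a smooth muscle list had negative log2 fold changes, 7 of them with an adjusted p under 0.05, and Myh11 was the most abundant. Of the 14146 tested genes, 7806 had negative log2 fold changes and 13.5% were lower by the same rule. The summed level of the list was 3690 to 23923 CPM in controls, with a median of 11584 CPM, and 3658 to 11832 CPM in GWI mice, with a median of 5142 CPM. The highest sums were those of Control replicates 6 and 1, and Control replicates 8 and 9 had sums within the range of most GWI mice. None of the 10 genes was at 0 in any mouse.

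In a list of 12 colon epithelium genes, 9 had positive and 3 had negative log2 fold changes. Those that rose included Epcam, Cdh1, Vil1 and Cdx2, and 0 genes fell, beside 13.4% higher and 13.5% lower of all tested genes. The lowest log2 fold change of the list was -0.11. The summed level of the list, led by Car1, was 19670 to 40516 CPM in controls, with a median of 25926 CPM. It was 21726 to 39779 CPM in GWI mice, with a median of 29027 CPM. Car1 alone had 29280 CPM in Control replicate 9, which had the highest sum, and 1988 CPM in Control replicate 1. Cdh1, which encodes E-cadherin, had a log2 fold change of 0.62 (SE 0.13, edgeR adjusted p = 0.00422). Fewer cells of a type and less RNA per cell cannot be told apart in such samples, and the part of tissue composition in the phospholipid results was not tested beyond a covariate in the fit.

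That covariate is the mean log2 level of the smooth muscle list minus that of the epithelium list. It lay between -1.69 and 0.86 in controls and between -2.25 and -0.80 in GWI mice. With it in the fit, 13 of the 37 genes were higher and 6 were lower in GWI colons, and the median log2 fold change was 0.30. Of all tested genes, 13.7% were higher and 16.3% were lower in that fit, so the 6 lower genes are close to the share of all genes.

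Phosphatidic acid entry was covered by Gpam, which adds the first acyl chain to glycerol 3-phosphate, and by the acyltransferases Agpat1 to Agpat5, which add the second. All 6 genes had positive log2 fold changes, and 2 passed the test as higher, beside 13.4% of all tested genes. Agpat1 (chromosome 17, 34604262 to 34613449) had 47.8 CPM in the lowest control mouse, a median of 92.2 CPM and 116 CPM in the highest, against 112, 130 and 145 CPM in the GWI group. Of the 8 GWI mice, 7 were above every control mouse, and Control replicate 9 was the lowest control. Its log2 fold change was 0.50 (SE 0.14, edgeR adjusted p = 0.0165), and 0.77 with the muscle covariate (adjusted p = 0.00755).

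Agpat2 (chromosome 2, 26593057 to 26604417) is the member of the family whose loss causes lipodystrophy. It ranged from 49.2 to 108 CPM in controls, with a median of 69.6 CPM, and from 66.9 to 116 CPM in GWI mice, with a median of 97.6 CPM. The groups overlapped through Control replicate 1, which stood far above the other controls and was exceeded by 2 GWI mice, and through GWI replicate 1, which lay below 6 controls. Its fold change was 0.44 in log2 (SE 0.13, edgeR adjusted p = 0.0203), and it was no longer called with the muscle covariate (log2 fold change 0.32, adjusted p = 0.190). Neither Agpat1 nor Agpat2 was called without Control replicates 6 and 7, with log2 fold changes of 0.44 and 0.36 and adjusted p-values of 0.0536 and 0.0613.

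The other acyltransferases did not pass the test. Agpat3 had 49.9 CPM in the lowest GWI mouse, GWI replicate 5, below every control, yet the other 7 GWI mice were above every control, and its log2 fold change was 0.16 (SE 0.07, edgeR adjusted p = 0.0820). The value of Agpat3 was 0.21 without GWI replicate 5 (adjusted p = 0.0199) and 0.10 with the muscle covariate (adjusted p = 0.444). Agpat4 spanned 34.7 to 166 CPM in controls, with Control replicate 1 at the top, and 60.3 to 133 CPM in GWI mice. Its log2 fold change of 0.42 (SE 0.25, edgeR adjusted p = 0.214) became 0.67 without Control replicate 1 (adjusted p = 0.0129) and 0.88 with the muscle covariate (adjusted p = 0.0580). With 1 mouse left out the value ranged from 0.33 to 0.67, and Agpat4 was called in 1 of the 17 fits. Without GWI replicate 5 the edgeR adjusted p of Agpat4 was 0.325. Gpam and Agpat5 had log2 fold changes of 0.14 and 0.09, with adjusted p-values of 0.420 and 0.588.

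The lipins convert phosphatidic acid to diacylglycerol, and Lpin2 had the largest log2 fold change of the 37 genes in the fit with group alone. Lpcat4 exceeded it without Control replicate 1 (1.06) and with the muscle covariate (1.32). Lpin2 (chromosome 17, 71182560 to 71249817) had 61.5 CPM in the lowest control, a median of 85.9 CPM and 94.3 CPM in the highest. In GWI mice the lowest value was 94.9 CPM, the median 150 CPM and the highest 212 CPM. The groups did not overlap, although GWI replicate 1 lay at the upper edge of the controls, and the highest values were those of GWI replicates 7 and 6. Lpin2 had a log2 fold change of 0.93 (SE 0.14, edgeR adjusted p = 0.000549), and it was 0.93 with the muscle covariate as well (adjusted p = 0.00364).

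Lpin3 (chromosome 2, 160880670 to 160906002) ranged from 19.1 to 41.1 CPM in controls, with a median of 24.5 CPM, and from 32.4 to 50.5 CPM in GWI mice, with a median of 42.4 CPM. Only Control replicate 1 reached into the range of the GWI mice. Lpin3 had a log2 fold change of 0.66 (SE 0.13, edgeR adjusted p = 0.00273). Lpin1, the lipin best known from fat and muscle, had 10.8 to 26.7 CPM in controls and 14.6 to 27.8 CPM in GWI mice, so the groups overlapped almost fully. It had a log2 fold change of 0.09 (SE 0.19, edgeR adjusted p = 0.745).

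In the CDP-diacylglycerol branch, both synthases rose and the enzymes of the mitochondrial arm did not pass the test. Cds2 (chromosome 2, 132263148 to 132312050) had 84.9 to 175 CPM in controls, with a median of 141 CPM, and 161 to 211 CPM in GWI mice, with a median of 179 CPM. The low end of the controls was made up of Control replicates 7, 8 and 9, the other 6 controls lay between 140 and 175 CPM, and 6 GWI mice were above every control. Its log2 fold change was 0.43 (SE 0.15, edgeR adjusted p = 0.0391).

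Cds1 (chromosome 5, 101765130 to 101823858), the synthase found in fewer tissues, ranged from 133 to 259 CPM in controls, with a median of 192 CPM, and from 198 to 278 CPM in GWI mice, with a median of 233 CPM. A single GWI mouse exceeded every control, and Control replicate 1 was again the highest control. Cds1 had a log2 fold change of 0.33 (SE 0.12, edgeR adjusted p = 0.0449). These were the least stable of the 14 calls. Of the 17 fits that each left out 1 mouse, Cds1 was called in 4 and Cds2 in 8, and without Control replicates 6 and 7 their log2 fold changes were 0.23 and 0.42, with adjusted p-values of 0.129 and 0.0615. With the muscle covariate Cds1 had 0.24 and was not called (adjusted p = 0.257), whereas Cds2 had a log2 fold change of 0.86 (adjusted p = 0.00275).

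Pgs1 makes phosphatidylglycerol phosphate and Crls1 is cardiolipin synthase, both in mitochondria. Pgs1 had a log2 fold change of 0.25 (SE 0.10, edgeR adjusted p = 0.0746), but it was called with the muscle covariate (0.38, adjusted p = 0.0479) and without Control replicate 1 (0.30, adjusted p = 0.0328). The latter was the only call of Pgs1 in the 17 fits that each left out 1 mouse. In that fit 17.9% of all tested genes were higher. Crls1 had -0.21 (SE 0.15, edgeR adjusted p = 0.302). Crls1 lay between 29.9 and 83.9 CPM in controls and between 35.4 and 43.1 CPM in GWI mice, and Control replicate 9 was the highest, with the next control at 55.0 CPM. Without Control replicate 9 the log2 fold change of Crls1 was -0.06 (adjusted p = 0.703).

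Phosphatidylserine is made by base exchange and can be turned into phosphatidylethanolamine, and from there by methylation into phosphatidylcholine. Both base exchange enzymes rose. Ptdss1 (chromosome 13, 66932830 to 66998401), which exchanges choline for serine, had 98.3 to 125 CPM in controls, with a median of 112 CPM, and 123 to 166 CPM in GWI mice, with a median of 143 CPM. The ranges touched at GWI replicate 1, and the other 7 GWI mice were above every control. Its log2 fold change was 0.36 (SE 0.07, edgeR adjusted p = 0.00338), and 0.30 with the muscle covariate (adjusted p = 0.0354).

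Ptdss2 (chromosome 7, 141122382 to 141157606), which exchanges ethanolamine for serine, ranged from 24.6 to 35.8 CPM in controls, with a median of 30.4 CPM, and from 33.3 to 48.0 CPM in GWI mice, with a median of 42.8 CPM. Here too GWI replicate 1 was the only GWI mouse within the control range. Ptdss2 had a log2 fold change of 0.49 (SE 0.09, edgeR adjusted p = 0.00219), and 0.54 with the muscle covariate (adjusted p = 0.00717).

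Neither of the following enzymes passed the test. Pisd, the mitochondrial phosphatidylserine decarboxylase, had 32.1 to 60.9 CPM in controls and 47.4 to 90.6 CPM in GWI mice, with a log2 fold change of 0.34 (SE 0.14, edgeR adjusted p = 0.0742). Control replicate 1 was the lowest mouse, and the log2 fold change was 0.41 without GWI replicate 5 (adjusted p = 0.0354) and 0.14 with the muscle covariate (adjusted p = 0.605). Pemt, the methyltransferase that is chiefly a liver enzyme, was low, at 2.72 to 4.88 CPM in controls and 2.29 to 3.70 CPM in GWI mice. None of the GWI mice was above the control median of Pemt, and its log2 fold change was -0.33 (SE 0.15, edgeR adjusted p = 0.106).

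In the Kennedy branch, 1 of 7 genes (14.3%) passed the test as higher, close to the 13.4% of all tested genes. That gene was Pcyt1a (chromosome 16, 32430921 to 32475070). It encodes CCT-alpha, the enzyme that makes CDP-choline and sets the rate of phosphatidylcholine synthesis by this route. Pcyt1a had 71.6 CPM in the lowest control, a median of 81.6 CPM and 109 CPM in the highest, against 103, 119 and 133 CPM in GWI mice. Only Control replicate 1 was within the GWI range, and 6 of the 8 GWI mice were above it. The log2 fold change was 0.49 (SE 0.09, edgeR adjusted p = 0.00152), and 0.59 with the muscle covariate (adjusted p = 0.00352).

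The kinases of the first step differed less. Chkb and Etnk1, a choline and an ethanolamine kinase, had log2 fold changes of 0.34 and 0.25, with adjusted p-values of 0.0689 and 0.0877, and Chka had 0.07 (SE 0.13, edgeR adjusted p = 0.701). Without Control replicate 1, Chkb and Etnk1 were called (edgeR adjusted p = 0.00615 and 0.0128). With the muscle covariate neither was called (edgeR adjusted p = 0.192 and 0.0779). Pcyt2, which makes CDP-ethanolamine, had 53.7 to 154 CPM in controls and 61.1 to 163 CPM in GWI mice. Its highest control was Control replicate 1, with the next at 79.2 CPM, and its highest GWI mouse was GWI replicate 5. The log2 fold change of Pcyt2 was 0.34 (SE 0.20, edgeR adjusted p = 0.210), 0.53 without Control replicate 1 (adjusted p = 0.0138) and 0.20 without GWI replicate 5 (adjusted p = 0.431).

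The last step is carried out by Cept1 and Chpt1, which join the headgroup to diacylglycerol. Cept1 spanned 74.2 to 279 CPM in controls, with a median of 104 CPM, and 98.0 to 148 CPM in GWI mice, with a median of 127 CPM. All 8 GWI mice lay within the control range, whose upper end was Control replicate 9 alone, and the log2 fold change was 0.03 (SE 0.22, edgeR adjusted p = 0.932). Without that mouse it was 0.28 (adjusted p = 0.121). Chpt1 had 107 to 261 CPM in controls and 109 to 127 CPM in GWI mice, none of which was above the control median, with a log2 fold change of -0.33 (SE 0.15, edgeR adjusted p = 0.0948). It was -0.19 without Control replicate 9, the highest control (adjusted p = 0.157). With the muscle covariate the log2 fold changes were -0.49 for Cept1 (adjusted p = 0.0486), a change of direction, and -0.59 for Chpt1 (adjusted p = 0.0106).

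**Figure D2:**
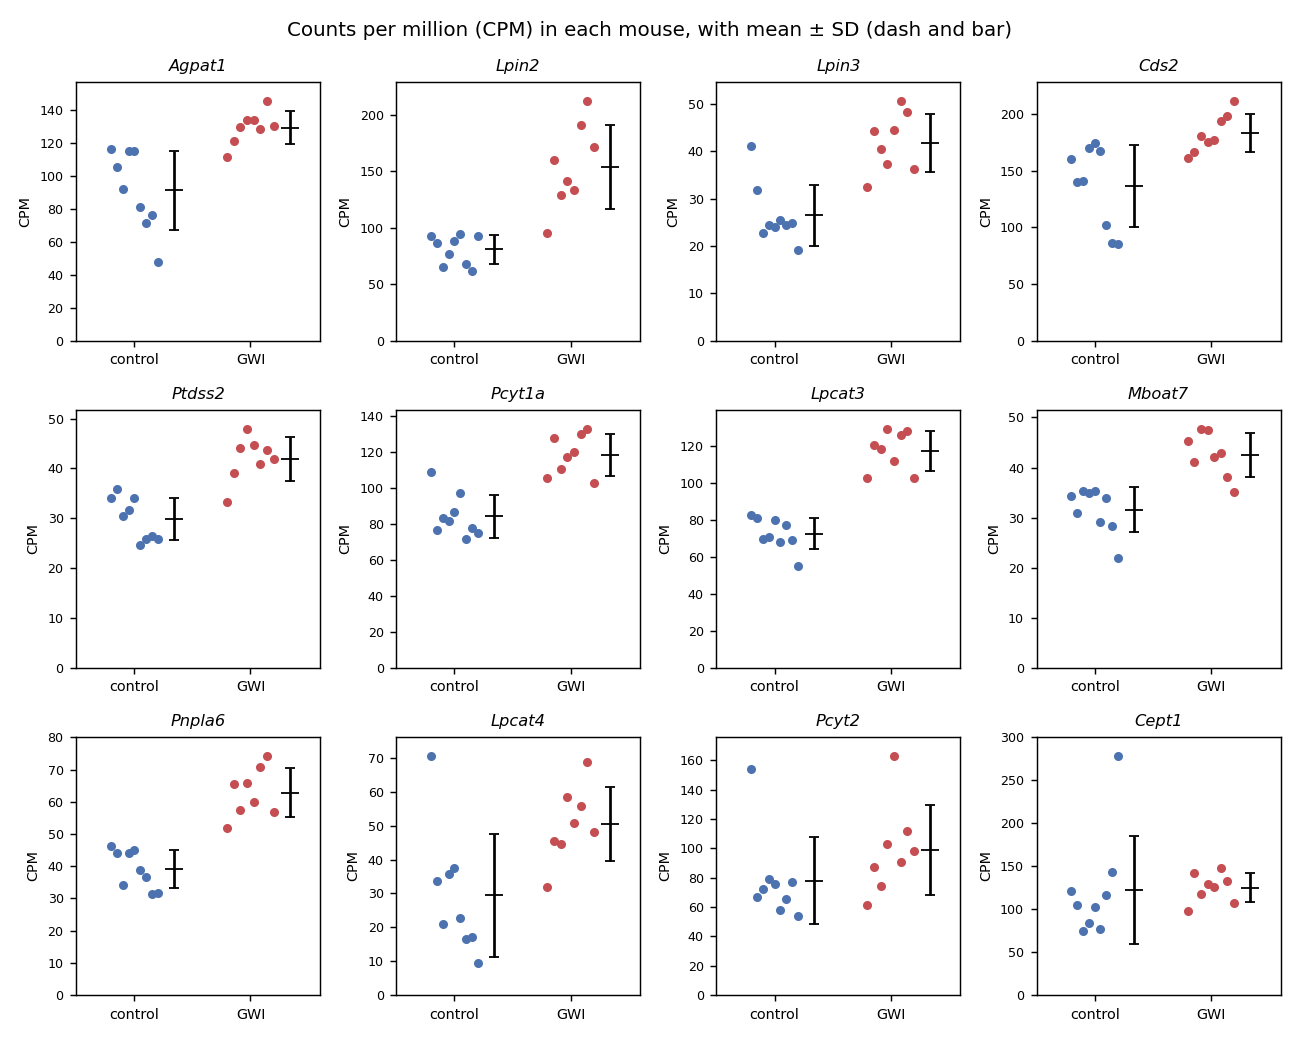
Level of 12 of the genes in each mouse in CPM (dots, in order of replicate number from left to right), for 9 control and 8 GWI mice, with the group mean and SD at the right of each group. Lpin2, Lpcat3 and Pnpla6 show no overlap between the groups, while Lpcat4 and Pcyt2 have 1 high control, Control replicate 1, and Cept1 has another, Control replicate 9.

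Acyl chain remodelling, in which lysophospholipids receive a new fatty acid, held the gene with the smallest p-value of the 37. Lpcat3 (chromosome 6, 124663027 to 124704418) prefers polyunsaturated acyl chains and is the main such enzyme of the gut epithelium. It had 55.1 CPM in the lowest control, a median of 70.5 CPM and 82.5 CPM in the highest, against 102, 119 and 129 CPM in GWI mice. A wide gap separated the groups, with Control replicate 1 the highest control and GWI replicate 1 the lowest GWI mouse. Lpcat3 had a log2 fold change of 0.69 (SE 0.08, edgeR adjusted p = 0.000183), and 0.70 with the muscle covariate (adjusted p = 0.00227).

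Mboat7 (chromosome 7, 3677789 to 3693523), which places arachidonic acid on phosphatidylinositol, ranged from 21.9 to 35.4 CPM in controls, with a median of 33.9 CPM, and from 35.1 to 47.8 CPM in GWI mice, with a median of 42.6 CPM. The ranges touched at GWI replicate 8, the lowest of its group, and Control replicate 9 was the lowest mouse of all. Mboat7 had a log2 fold change of 0.43 (SE 0.10, edgeR adjusted p = 0.00548).

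Lpcat4 and Mboat1 came close to the threshold, and of the 17 fits that each left out 1 mouse, Lpcat4 was called in 2 and Mboat1 in 4. Lpcat4 had 9.34 to 70.7 CPM in controls, with a median of 22.8 CPM, and 31.9 to 68.9 CPM in GWI mice, with a median of 49.6 CPM. The highest mouse was Control replicate 1, and the log2 fold change was 0.78 (SE 0.29, edgeR adjusted p = 0.0535). Mboat1 had 98.3 to 252 CPM in controls and 135 to 269 CPM in GWI mice, with a log2 fold change of 0.50 (SE 0.19, edgeR adjusted p = 0.0539). Without Control replicate 1 the log2 fold changes were 1.06 for Lpcat4 and 0.66 for Mboat1, with adjusted p-values of 0.00323 and 0.00398. With the muscle covariate they were 1.32 for Lpcat4 (adjusted p = 0.0344) and 0.25 for Mboat1 (adjusted p = 0.468).

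The remaining acyltransferases of this step showed no call. Lpcat1, the enzyme of lung surfactant, had a log2 fold change of 0.03 with a 95% interval of -0.18 to 0.24, and Mboat2 had 0.18 (SE 0.25, edgeR adjusted p = 0.596). With 1 mouse left out, the value of Mboat2 ranged from 0.002 to 0.31, and it was called in 0 of the 17 fits. Lpcat2, which is prominent in inflammatory cells, had -0.25 (SE 0.28, edgeR adjusted p = 0.510) and varied more than 4 times between controls, from 10.1 to 45.0 CPM. With 1 mouse left out its log2 fold change ranged from -0.42 to -0.11, and it was called in 0 of the 17 fits. The value of -0.11 was that without Control replicate 9 (adjusted p = 0.778).

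Among the enzymes of phospholipid hydrolysis, 3 of 6 rose, beside 13.4% of all tested genes. Pnpla6 (chromosome 8, 3515384 to 3544267) encodes neuropathy target esterase, a phospholipase of the endoplasmic reticulum that removes both acyl chains from phosphatidylcholine and is known as a target of certain organophosphates. It had 31.5 CPM in the lowest control, a median of 38.8 CPM and 46.2 CPM in the highest, and 51.7, 62.8 and 74.3 CPM in GWI mice. The groups did not overlap, and GWI replicate 1 was the lowest of its group. Pnpla6 had a log2 fold change of 0.68 (SE 0.10, edgeR adjusted p = 0.000448), and 0.76 with the muscle covariate (adjusted p = 0.00257).

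Pld1 (chromosome 3, 27938695 to 28133362), a phospholipase that frees choline from phosphatidylcholine, had 83.6 to 134 CPM in controls, with a median of 118 CPM, and 131 to 170 CPM in GWI mice, with a median of 157 CPM. In this gene Control replicate 9 was the highest control, and only GWI replicate 8 lay below it. The log2 fold change was 0.47 (SE 0.10, edgeR adjusted p = 0.00372), and 0.23 with the muscle covariate, where it was not called (adjusted p = 0.112).

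Pla2g6 (chromosome 15, 79286228 to 79328390), a calcium-independent phospholipase, was a low transcript. It ranged from 5.37 to 13.1 CPM in controls, with a median of 9.39 CPM, and from 10.7 to 16.6 CPM in GWI mice, with a median of 12.7 CPM. Control replicate 2 was the only control within the GWI range, and 4 GWI mice were above it. Its log2 fold change was 0.49 (SE 0.14, edgeR adjusted p = 0.0168).

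The other 3 hydrolases had negative log2 fold changes and were not called. They were -0.35 for Pla2g4a (SE 0.26, edgeR adjusted p = 0.318), the cytosolic phospholipase that releases arachidonic acid, -0.41 for Pld2 (adjusted p = 0.189) and -0.08 for Gpcpd1 (adjusted p = 0.671), which splits glycerophosphocholine. Without Control replicate 9 the value of Gpcpd1 was 0.04 (adjusted p = 0.761), a change of direction. Pla2g4a ranged from 25.6 to 117 CPM in controls, with Control replicate 9 at the top, and from 32.9 to 64.4 CPM in GWI mice. Without that control its log2 fold change was -0.14 (adjusted p = 0.663). With the muscle covariate, Crls1, Pemt, Lpcat2 and Pla2g4a joined Cept1 and Chpt1 as lower in GWI colons, with log2 fold changes from -0.88 for Pla2g4a to -0.53 for Pemt and adjusted p-values from 0.0101 to 0.0464. These 6 of 37 stand beside 16.3% of all tested genes lower in the same fit.

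Compared per kilobase of exon, the genes of the pathway differed widely in level. In controls the highest were Cds1 with 47.6 CPM per kilobase, Cept1 with 39.3 and Mboat1 with 38.8, and in GWI colons they were Cds1 with 59.9, Mboat1 with 55.0 and Agpat2 with 45.4. The levels are group means, and that of Cept1 in controls includes Control replicate 9, at 279 CPM against a control median of 104 CPM. The lowest in both groups were Pld2 and Mboat2, with 0.861 and 0.892 CPM per kilobase in controls. Of the lipins, Lpin3 and Lpin2 were nearly level in controls, with 7.16 and 6.59 CPM per kilobase, and Lpin1 had 1.95. Of the choline kinases, Chkb had 13.2 and Chka 2.75 CPM per kilobase in controls, but exons of Chkb share 57.6% of their bases with other genes.

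Exons shared with other genes limit some of these counts. The sources used here do not say whether reads were assigned by strand, and the genes that overlap Pisd, and 1 of those that overlap Chkb, lie on the same strand, where strand would not separate them. Among the 14 called genes the largest shared share was 10.2% of the exon bases, for Lpcat3 with Emg1 on the opposite strand, and it was 9.09% for Pcyt1a and 7.36% for Ptdss1. For genes that were not called it was 24.9% for Cept1, 20.9% for Pisd and 18.9% for Agpat5. Counts of Chkb, Cept1, Pisd and Agpat5 are therefore uncertain.

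A wider set held 64 genes of neighbouring steps, from glycerol 3-phosphate supply to regulators, of which 63 were tested and Gpat2, with 0 to 4 counts per mouse, was not. Of these, 23 were higher and 4 were lower in GWI colons, and the median log2 fold change was 0.25. These shares stand beside the same 13.4% and 13.5% of all tested genes, and with the muscle covariate the numbers were 15 higher and 3 lower, beside 13.7% and 16.3% of all tested genes.

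Within the wider set, 4 of 5 tested genes of glycerol 3-phosphate supply and acylation rose, as did 7 of 12 genes of diacylglycerol use and 5 of 11 regulators. The counts of this paragraph stand beside 13.4% of all tested genes that were higher. In ether lipid synthesis 0 of 4 genes passed the test in either direction, a list too short to set apart from the share of all tested genes. Of 13 other genes of phospholipid breakdown, 1 rose, Pnpla7, a relative of Pnpla6. The regulators that rose were Srebf1, Srebf2 and Scap, of the sterol-regulated system that controls lipid synthesis, with log2 fold changes of 0.54, 0.57 and 0.39, together with Pparg and Nr1h2.

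The smallest p-values among the wider genes that rose were those of Lclat1, Selenoi, Gpat4, Dgkd and Dgkq. Lclat1, an acyltransferase of cardiolipin and phosphatidylinositol, had a median of 95.1 CPM and a maximum of 108 CPM in controls and 103 to 151 CPM in GWI mice, 7 of which were above every control. Lclat1 had a log2 fold change of 0.53 (SE 0.09, edgeR adjusted p = 0.00125), and 0.28 with the muscle covariate (adjusted p = 0.0379). Selenoi, the ethanolamine phosphotransferase, had 0.50 (SE 0.11, edgeR adjusted p = 0.00579). Gpat4, which like Gpam starts the pathway but at the endoplasmic reticulum, had 0.43 (SE 0.10, edgeR adjusted p = 0.00682).

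Dgkd and Dgkq return diacylglycerol to phosphatidic acid and had log2 fold changes of 0.43 and 0.83, with adjusted p-values of 0.00781 and 0.00880. Dgkq had 0.66 with the muscle covariate and was not called (adjusted p = 0.0917), and 30.8% of its exon bases are shared with other genes. Its control range of 16.3 to 49.9 CPM ended in Control replicate 1, and the GWI range was 28.7 to 56.1 CPM.

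The 4 wider genes that fell were Ptpmt1, Flvcr1, Pcyt1b and Slc44a5. Ptpmt1 was called in all 17 fits that each left out 1 mouse, Flvcr1 in 8, Pcyt1b in 5 and Slc44a5 in 2. Ptpmt1, the mitochondrial phosphatase before cardiolipin synthase, had a log2 fold change of -0.42 (SE 0.11, edgeR adjusted p = 0.0137), but 52.3% of its exon bases are shared with other genes. Flvcr1, a choline transporter, had -0.35 (SE 0.12, edgeR adjusted p = 0.0389) and Slc44a5 had -0.69 (SE 0.25, edgeR adjusted p = 0.0493). Pcyt1b, the paralog of Pcyt1a, had 1.43 to 4.47 CPM in controls and 1.25 to 3.33 CPM in GWI mice, with a log2 fold change of -0.72 (SE 0.26, edgeR adjusted p = 0.0456). None of Flvcr1, Pcyt1b and Slc44a5 was called with the muscle covariate, with log2 fold changes of -0.40, 0.04 and -0.29 and adjusted p-values of 0.0610, 0.903 and 0.534.

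Genes of the circadian clock also differed between the groups. The list was measured because several of its genes were known from earlier results to differ. Its counts therefore lend that difference no independent support. Of 17 clock genes, 3 rose and 8 fell, beside 13.4% and 13.5% of all tested genes. By more than 1 in log2, 7 of the 17 differed, beside 375 of the 14146 tested genes and 0 of the 37 phospholipid genes in the same fit. Arntl had 4.57 to 16.1 CPM in controls, with a median of 5.76 CPM, and 14.3 to 45.5 CPM in GWI mice, with a median of 19.8 CPM, so that Control replicate 1 was the only control to overlap with the GWI mice. Arntl had a log2 fold change of 1.72 (SE 0.26, edgeR adjusted p = 0.000639). Npas2 and Nfil3 rose as well, by 1.58 and 1.35 in log2.

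Dbp had 66.1 to 139 CPM in controls and 31.4 to 71.3 CPM in GWI mice, 7 of which were below every control, and its log2 fold change was -1.12 (SE 0.19, edgeR adjusted p = 0.000947). Hlf fell by 1.61, Bhlhe41 by 1.20 and Ciart by 1.14 on the log2 scale, and Per2, Per3, Tef and Nr1d2 fell by 0.92, 0.70, 0.64 and 0.53. The summed level of the list, led by Nr1d2, was 620 to 970 CPM in controls and 591 to 867 CPM in GWI mice, and no clock gene was at 0 in any mouse. The hour at which tissue was taken is not given in the sources used here, and the part of the clock genes in the phospholipid results was not tested.

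**Figure D3:**
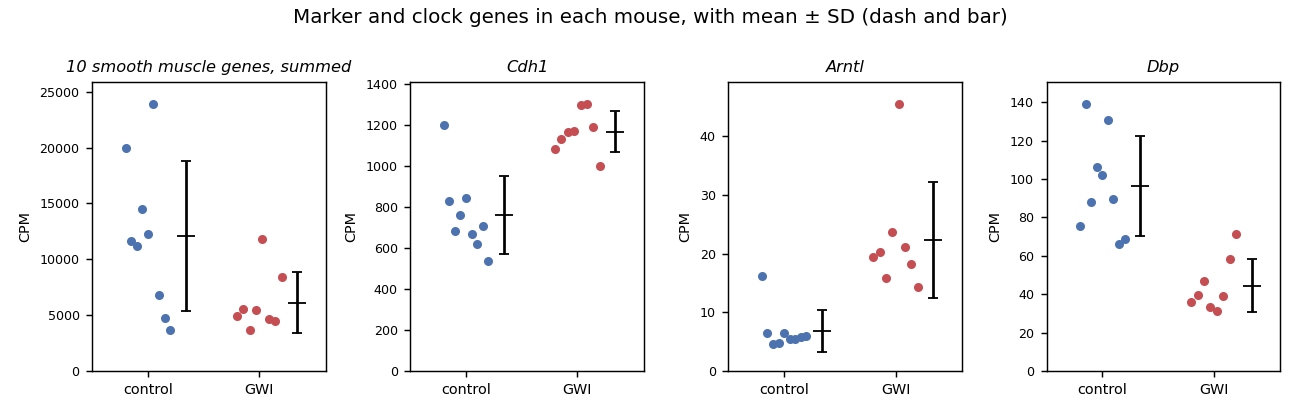
Summed level of 10 smooth muscle genes and the levels of Cdh1, Arntl and Dbp in each mouse in CPM (dots, in order of replicate number from left to right), with the group mean and SD at the right of each group. The sums of the smooth muscle genes overlap between the groups, and Control replicate 1 lies with the GWI mice for Cdh1 and Arntl.

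Adipocyte genes are listed here because fat cells are rich in several of these enzymes. All 8 adipocyte genes were above 0 in log2 fold change (median 1.03), and 1, Cidec, passed the test with 0.99 (SE 0.33, edgeR adjusted p = 0.0365). Of all tested genes, 13.4% were higher. The summed level, led by Fabp4, was 48.8 to 300 CPM in controls, with a median of 136 CPM, and 108 to 883 CPM in GWI mice, with a median of 240 CPM. GWI replicate 7 had the highest sum, and none of the 8 genes was at 0 in any mouse. Without GWI replicate 7, 12 of the 37 phospholipid genes were higher and 0 lower, beside 10.4% and 9.21% of all tested genes. The part of fat tissue in the result was not tested.

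Of 6 goblet cell genes, 1 rose (Muc2) and 0 fell. In the enteric neuron list, 0 of 8 genes passed the test, and their log2 fold changes were all negative, with a median of -0.58. Of 4 endothelium genes 2 fell (Kdr and Tie1), of 5 fibroblast genes 1 fell (Dcn), and of 6 macrophage genes 1 fell (Mrc1). Lists for T cells, B and plasma cells, tuft cells and interstitial cells of Cajal held no called gene among 4, 3, 3 and 2 tested. Among all tested genes, 13.4% were higher and 13.5% were lower.

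Of the small intestine list, 5 of 7 genes were tested, Alpi and Mep1a rose and Fabp6 fell. None of the 7 pancreas genes passed the filter on low counts, and their summed level was at most 0.364 CPM in any mouse.

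Promoter windows from RefSeq (GRCm38.p6), which run from 250 bases before to 50 after a start of transcription, were available for 33 of the 37 genes in 51 windows. The letters of 3 motifs were searched on both strands. The E-box CACGTG was in 3 of the 51 windows (5.88%), those of Crls1, Lpin2 and Lpin3, against 7.15% of all 32851 windows. The D-box TTATGTAA was in 0 of the 51 and in 0.938% of all windows. A sterol regulatory element written TCACNCCAC was in 2 of the 51 windows (3.92%), both of Pcyt1a, against 1.24% of all windows. A match of letters is a description and not a site of binding.

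The stretches of Lpin2, the gene with the largest fold change, and of Pcyt1a are shown 5′ to 3′ on the plus strand, with the motif in capitals. The first lies 9 bases before a start of Lpin2 (chr17:71183513-71183531), and the second lies 116 bases before one start of Pcyt1a and 215 before another (chr16:32430795-32430823).
Lpin2: gagctcgcgtCACGTGgcc
Pcyt1a: ttcggctcagTCACCCCACgcgcccggcc

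The results rest on the 17 mice as independent samples. The names of several mice begin alike in a way not explained in the sources used here, and summing mice with a shared first part left 6 control and 4 GWI samples. In that fit 0 of the 37 genes were called, 14 genes of all tested were higher and 1 was lower, and the median log2 fold change of the 37 was 0.30. The fit without a paired structure is the one given throughout. By the threshold in the study's methods, a p under 0.05, taken here as the unadjusted p of edgeR, and a change of more than 1 in log2, the count among the 37 genes would be 0 in either direction.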

How the data were processed

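RNA-seq of colon tissue from 9 control and 8 GWI mice was used. Per the submitters' processing notes and the study's methods, the authors used Trimmomatic 0.36 on the reads, STAR 2.5.2b for mapping to GRCm38, and featureCounts for counts per gene. They deposited raw counts, whole numbers without normalization. The annotation release and the strand setting are not given in the sources used here. All 17 columns matched a sample by its description.

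Counts were filtered with filterByExpr, scaled by TMM and tested by the quasi-likelihood test (robust) of edgeR 4.0.16 in R 4.3.3 with group as the only term. P-values were adjusted over all 14146 tested genes. Alternatives used DESeq2 1.42.0 and limma 3.58.1, other scalings and filters, covariates and left-out mice. Scripts were tested on simulated data. Each SE is the absolute log2 fold change divided by the square root of F. Exon lengths and positions come from GENCODE M21, to which all 210 listed genes matched. Scores per mouse used log2 CPM with a pseudocount of 0.5.

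The 37 genes, the wider list, the marker lists and the clock list were chosen with earlier results of these data known. Values per mouse are given by rule for called genes with the largest fold changes, up to 3 a step, and for other genes named after their values were seen. From the wider list the 5 smallest p-values in each direction are named. Pairs of mice of a group differed by a chi-square of at least 9.41 per degree of freedom, so no pair looked like the same library. Single results of the marker lists that need a withheld item are not reported here.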

Additional observations from a re-analysis of the deposited data

Results flagged for a closer look

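In 12 of the 74 groups of values (37 genes in 2 groups of mice), the highest or lowest mouse lay far from the others by Dixon's criterion. Chance flags about 1 in 20 groups, and mice share genes that vary together, so the 12 are not independent. Control replicate 1 accounted for 7 of them. It was high, compared with the nearest control mouse, for Agpat2 (108 against 76.5 CPM), Agpat4 (166 against 89.2 CPM), Chkb (61.7 against 44.8 CPM) and Pcyt2 (154 against 79.2 CPM). It was also high for Lpcat4 (70.7 against 37.5 CPM) and Mboat1 (252 against 168 CPM), and it was low for Pisd (32.1 against 48.2 CPM).

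Control replicate 9 accounted for 4. It was high for Crls1 (83.9 against 55.0 CPM), Cept1 (279 against 144 CPM) and Chpt1 (261 against 183 CPM), and low for Lpcat1 (10.3 against 12.7 CPM). The last was Agpat3 in GWI replicate 5, at 49.9 CPM against 62.0 CPM in the next GWI mouse.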

How the results depend on the processing

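Across 12 other fits and 17 fits that each left out 1 mouse, the 14 called genes had positive log2 fold changes. Of the 14, 12 were called in every fit that left out 1 mouse, the exceptions being Cds1 and Cds2, and 9 were called in all other fits but the one on summed mice. The median log2 fold change of the 37 genes ranged from 0.27 to 0.36 in the other fits and from 0.29 to 0.38 with 1 mouse left out.

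With 1 mouse left out, 12 to 21 of the 37 genes were higher, 0 to 1 lower, and 1 to 4 wider genes were lower. Of all genes, 10.4% to 17.9% were higher and 9.21% to 16.3% lower in these fits. The highest number, 21, came without Control replicate 1, where both shares were at their highest and 8 further genes passed the test, among them Chpt1 as lower. Limma-voom with quality weights gave 26 higher and 2 lower of the 37, 8 wider genes lower, and 3911 higher and 4180 lower of all genes, against 1889 and 1903. Library size alone gave 2 wider genes lower, and no filter on low counts gave 1. With the muscle covariate 6 of the 37 were lower and 15 wider genes higher, beside 1938 higher and 2307 lower of all genes, and the sign changed for Cept1 (-0.49) and Pcyt1b (0.043). It also changed, without a call in either fit, for Agpat5 (-0.19), Chka (-0.12), Mboat2 (-0.06) and Pld2 (0.21). Without Control replicates 1 and 9 together, 1 of the 37 was lower.

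Summing mice with a shared name part left 0 of the 37 and 0 of the wider genes in either direction, 0 clock genes, and 14 genes higher and 1 lower of all, with 6 samples against 4. An unadjusted p under 0.05 with an absolute log2 fold change over 1 gave 0 of the 37 and 0 wider genes, 7 clock genes, and 92 higher and 250 lower of all. The causes of these shifts were not tested.

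With the replicate number as a replicate block, over 8 mice a group, 11 of the 37 genes were higher and 0 lower, 15 wider genes were higher and 1 lower, and 1404 genes were higher and 814 lower of all. Agpat2, Cds1 and Cds2 were not called there, with log2 fold changes of 0.46, 0.36 and 0.40 and adjusted p-values of 0.0858, 0.105 and 0.0868. Same-numbered mice shared only a number: their deviations from the group means correlated at -0.51 to 0.11, 1 of 8 pairs exceeded 0.1, and 0 of 8 control mice correlated best with its own number.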
